A study of Mus musculus with 24 samples.

Results

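Hippocampal expression of genes of active DNA demethylation was examined in the offspring of male mice on a methyl donor-rich diet (MD) or a control diet (CD). The genes were Tet1, Tet2, Tet3, Tdg, Mbd4, Smug1, Apex1, Gadd45a, Gadd45b and Gadd45g, a list of 10 genes defined by name and function, whose rule uses no measured value although earlier results of these data were known when it was drawn up. Probes were assigned to them through the identifiers that the array files give for each probe. This found 14 probes for 9 of the 10 genes, out of 39429 probes on the array and 19751 genes with a matched probe. Tet3 and Tdg had 3 probes each, Tet2 had 2, and each other measured gene had 1. No probe was matched to Tet1, so Tet1 was not analysed here. All 14 probes were well above the local background on all 24 arrays.

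The study hybridised RNA to Agilent mouse arrays in a single color, with 6 arrays in each of 4 groups. CD F1 and MD F1 mice had C57BL/6J fathers, fed either diet for 6 weeks before mating, and 129S6/SvEv mothers, and their strain is labelled congenic C57BL/6J x 129S6/SvEv hybrids. CD F2 and MD F2 mice, labelled mixed C57BL/6J x 129S6/SvEv hybrids, were the grandoffspring, bred from F1 males of either line and F1 females of the control line. The experimental diet (3MS ZM) was enriched in methionine, choline, betaine, folic acid, vitamin B12 and zinc, and the control diet was the control feed from Envigo. All F1 and F2 mice were themselves kept on control diet, so the groups differed in the diet of an ancestor and not in their own. Each array held hippocampal RNA pooled from 4 mice, so an array gives the mean of a pool and not the level of a mouse. The F2 labels carry the codes lh (replicates 1 to 3) and rh (replicates 4 to 6) in each group, whose meaning is not stated. Whether F2 arrays of different code come from different mice is therefore not known for most arrays. By the measure of sex composition given below, MD F2 replicate 6 (-7.43) differed from MD F2 replicates 1 to 3 (5.14 to 7.35). In CD F2, replicates 1 to 3 had 7.05, 7.37 and -7.63, and replicates 4 to 6 had 6.7, -7.69 and 5.29. For CD F2 the measure therefore does not show whether arrays of different code come from different mice. With the code as a term in the model, 0 of the 14 probes were called in F2. The labels give an age of 4 weeks, whereas the methods describe adult mice.

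In mammals, methylated cytosine is removed actively in steps. TET enzymes, which need iron and 2-oxoglutarate, oxidize 5-methylcytosine to 5-hydroxymethylcytosine and further to 5-formylcytosine and 5-carboxylcytosine. The glycosylase TDG cuts out these last forms, MBD4 and SMUG1 act on deaminated or oxidized pyrimidines, and the endonuclease APEX1 opens the strand at the site left behind so that base excision repair can refill it with an unmodified cytosine. The GADD45 proteins are small stress- and activity-induced partners that have been linked to recruitment of the repair enzymes to target genes. In the adult brain 5-hydroxymethylcytosine is abundant in neurons, and Gadd45b is known as a gene that neuronal activity induces in the hippocampus.

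Median intensity per array was 166.6 to 317.8 in F1 and 148.2 to 262 in F2, and 27383 to 37013 spots per array were well above background. Each generation lay on 3 slides of its own where each slide carried 2 arrays of either diet, and was scanned on a day of its own. Generation, slide, scan day and strain background therefore cannot be told apart. MD F1 replicate 6 stood apart from the other F1 arrays (mean correlation 0.986), as did CD F2 replicate 6 and MD F2 replicate 3 in F2 (0.973 and 0.971). Differences that rest on these 3 arrays are mostly given with and without them. The tests of the order of the groups and some correlations are given only with them. The mean log2 signal of Y-linked genes minus that of Xist, a measure of sex composition, lay between -2.32 and -1.93 in CD F1 and between -2.19 and 0.11 in MD F1, with the highest value on MD F1 replicate 6. In F2 it was 5.14 or more on 9 arrays and -7.43 or less on 3, which were CD F2 replicates 3 and 5 and MD F2 replicate 6. Pools of unlike sex composition were thus not spread evenly over the F2 groups. All 6 markers of hippocampal neurons were well above background on every array. The mean log2 level of 4 thalamus markers was 9.28 to 9.45 on the CD F1 arrays and lower, 8.98 to 9.24, on the MD F1 arrays. That of 5 choroid plexus markers ranged from 7.91 to 12.5 in F1 and from 7.59 to 13.8 in F2. The part of these tissue markers in the differences below was not tested. In tissue RNA, fewer cells of a type and less RNA per cell cannot be told apart.

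The promoter windows of 3 genes are shown because probes of these genes, Tdg, Tet3 and Gadd45b, had lower signal in MD F1 than in CD F1 at an unadjusted p under 0.05. Each holds 250 bases before and 50 after the start of the gene in RefSeq (assembly GRCm38.p6), written 5′ to 3′ on the strand of the gene. The Tdg window is chr10:82629588-82629887 on the plus strand, the Tet3 window chr6:83441629-83441928 on the minus strand, and the Gadd45b window chr10:80929841-80930140 on the plus strand. Capitals mark TGACGTCA, the cyclic AMP response element, and CACGTG, an E-box. Both motifs read the same on either strand and they do not overlap here.
Tdg: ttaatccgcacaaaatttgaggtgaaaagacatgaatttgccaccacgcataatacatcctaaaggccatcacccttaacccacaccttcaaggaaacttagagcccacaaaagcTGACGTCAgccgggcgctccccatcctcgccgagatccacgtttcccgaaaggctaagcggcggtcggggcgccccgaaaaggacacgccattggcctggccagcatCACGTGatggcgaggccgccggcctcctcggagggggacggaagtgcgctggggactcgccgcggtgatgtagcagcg
Tet3: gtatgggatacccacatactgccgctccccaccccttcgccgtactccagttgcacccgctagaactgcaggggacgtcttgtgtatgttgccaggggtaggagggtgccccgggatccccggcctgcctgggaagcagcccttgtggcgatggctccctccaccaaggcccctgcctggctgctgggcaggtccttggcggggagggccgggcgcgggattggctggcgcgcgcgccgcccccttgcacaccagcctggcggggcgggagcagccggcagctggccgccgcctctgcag
Gadd45b: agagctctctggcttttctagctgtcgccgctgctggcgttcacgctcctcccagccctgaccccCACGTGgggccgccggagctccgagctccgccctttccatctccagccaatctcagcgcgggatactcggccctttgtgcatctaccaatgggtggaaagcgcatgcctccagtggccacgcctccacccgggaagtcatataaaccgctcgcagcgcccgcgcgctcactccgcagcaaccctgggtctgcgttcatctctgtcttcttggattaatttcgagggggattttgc
The Tdg window held 1 copy of each motif, the Gadd45b window 1 CACGTG, and the Tet3 window neither. Over the windows of all 10 genes, 4 held CACGTG (Tdg, Apex1, Gadd45b and Gadd45g), against 7.15% of 32851 RefSeq windows of 300 bases, and 1 held TGACGTCA (Tdg), against 1.79%. The 10 windows had 14 to 57 CpG dinucleotides with a median of 23, and the median over all windows was 7. Both motifs hold a CpG themselves, so the shares above do not come from windows of like CpG content. The motifs were chosen after the sequences were seen, and a match is only a description of these letters. No probe sequence was available, so the transcript part that each probe reports is not stated.

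The first comparison asks whether the paternal diet was accompanied by other levels of these transcripts in the F1 hippocampus. Probes of Tdg, Tet3 and Gadd45b were lower and the Gadd45a probe was higher in MD F1 at an unadjusted p under 0.05, but none of the 14 probes passed the threshold of the test over all probes. In limma, 0 of 14 were called at an FDR under 0.1, where 0.033% of all probes were called, and the smallest FDR of the 14 was 0.194. The count at an unadjusted p under 0.05 was 4 of 14, against 14.4% of all probes. Of these 4, 1 was higher (6.96% of all probes) and 3 were lower (7.48%). The median log2 fold change of the 14 was -0.02, beside 0.01 over all probes, with 7 positive and 7 negative. In 0 of the 14 were the values of CD F1 and MD F1 arrays fully separated, as they were for 1.79% of all probes. Without MD F1 replicate 6, 3 of the 14 had an unadjusted p under 0.05, and with the sex measure as a term in the model 1 did. Over all probes, leaving out each array in turn gave 4375 to 6288 at this p. The number over all probes with the sex term is not given here.

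Tdg encodes thymine DNA glycosylase, the enzyme that removes 5-formylcytosine and 5-carboxylcytosine, and its 3 probes carry the same RefSeq accession. Probe A_55_P2044091 had a log2 signal of 8.65 to 9.06 (median 9.03) on the CD F1 arrays and of 7.95 to 8.67 (median 8.46) on the MD F1 arrays. Of the 6 MD F1 arrays 5 lay below the lowest CD F1 array, and all 6 lay below the CD F1 mean. Means were 8.95 ± 0.164 (SD, n = 6) and 8.43 ± 0.256 (SD, n = 6), a log2 fold change of -0.52 (SE 0.121, 95% interval -0.78 to -0.26) with an FDR of 0.194 in limma and rank 199 among all probes (two-sided exact permutation test, p = 0.00433, before any adjustment). The lowest value, 7.95, belonged to MD F1 replicate 6, and without that array the log2 fold change was -0.42 (FDR 0.111, limma). The difference was negative on all 3 slides, from -0.65 to -0.45. With the sex measure as a term it was -0.32 (FDR 0.393). In a fit of all 24 arrays it was -0.53 and passed the threshold (FDR 0.0954). It also passed without scaling between arrays (-0.83, FDR 0.0581), where the median log2 fold change of all probes was -0.28.

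The other Tdg probes had log2 fold changes of smaller size in F1, and the probes were not tested against each other. Probe A_55_P2121364 had 8.35 to 8.71 (median 8.51) in CD F1 and 8.41 to 9.01 (median 8.54) in MD F1. Its groups overlapped widely, and its log2 fold change of 0.09 (SE 0.104, FDR 0.692) was within the spread between arrays. The highest value, 9.01, was again that of MD F1 replicate 6, the array with the lowest value of the first probe, and without it the log2 fold change was 0.01. Probe A_66_P116265 had 6.62 to 7.21 (median 6.85) in CD F1 and 6.50 to 6.99 (median 6.67) in MD F1. This gave a log2 fold change of -0.23 (SE 0.12, FDR 0.398), with 5 of 6 MD F1 arrays below the CD F1 mean and 2 below every CD F1 array. Without scaling between arrays, where the median log2 fold change of all probes was -0.28, A_66_P116265 had -0.60 and was called (FDR 0.0775).

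**Figure D1:**
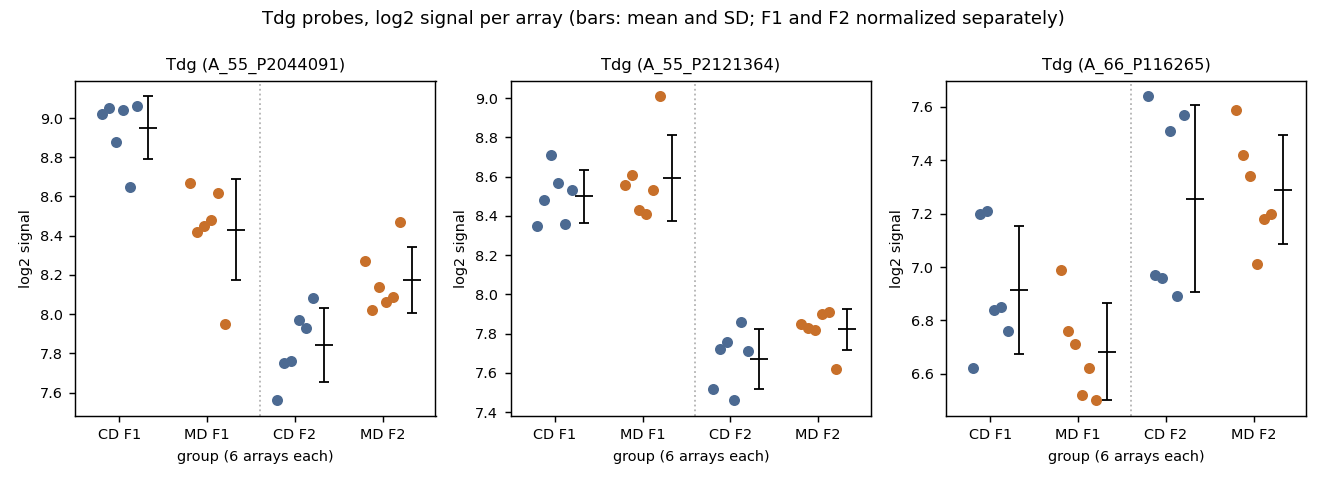
Log2 signal of the 3 Tdg probes on each array (points; 6 per group, blue for CD and orange for MD), with the group mean and SD as black bars and with F1 and F2 normalized separately. Probe A_55_P2044091 is lower in MD F1 than in CD F1 and higher in MD F2 than in CD F2, while the groups of the other probes overlap more widely.

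In the F2 generation the same Tdg probe had the higher mean in the MD line, again without passing the threshold over all probes. A_55_P2044091 had 7.56 to 8.08 (median 7.85) in CD F2 and 8.02 to 8.47 (median 8.12) in MD F2. Of the 6 CD F2 arrays 5 lay below the lowest MD F2 array, and the groups overlapped through CD F2 replicate 6 (8.08). The log2 fold change was 0.33 (SE 0.106, 95% interval 0.10 to 0.56), with an FDR of 0.89 in limma (two-sided exact permutation test, p = 0.00649, before any adjustment). It was positive on all 3 slides, from 0.08 to 0.63. Without CD F2 replicate 6 and MD F2 replicate 3 it was 0.39 (FDR 0.779). Probe A_55_P2121364 had a log2 fold change of 0.15 (SE 0.0829, FDR 0.912), with 7.46 to 7.86 in CD F2 and 7.62 to 7.91 in MD F2. Probe A_66_P116265 had 0.04 (SE 0.16, FDR 0.997), and its CD F2 arrays fell into 3 between 6.89 and 6.97 and 3 between 7.51 and 7.64.

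Among all 14 probes in F2, 0 were called at an FDR under 0.1, as were 0% of all probes, and the smallest FDR of the 14 was 0.89. A_55_P2044091 of Tdg was the 1 probe of 14 with an unadjusted p under 0.05, against 5.6% of all probes and 3.22% with a higher signal in MD F2. Of the 14, 12 had a positive log2 fold change, with a median of 0.12 beside 0.01 over all probes. The groups were fully separated for 0 of the 14 and for 0.352% of all probes.

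Whether the diet effect differed between the generations was tested as an interaction over all 24 arrays, with the F2 log2 fold change subtracted from that of F1. For A_55_P2044091 the difference was -0.86 (SE 0.163, 95% interval -1.20 to -0.52), rank 9 among all probes. Its FDR was 0.114 in limma, which missed the threshold. The FDR was 0.0894 without the 3 arrays that stood apart, 0.0739 with dim probes left out and 0.0942 with the sex measure as a term, whereas it was 0.172 with the replicate block, 0.396 with scaling to the 75th percentile and 0.643 without scaling. The difference was -0.06 (FDR 0.951) for A_55_P2121364 and -0.27 (FDR 0.771) for A_66_P116265. Of the 14 probes 0 were called, against 0.0127% of all probes. The count at an unadjusted p under 0.05 was 2 of 14 (8.29% of all probes), that of Tdg and A_51_P199339 of Tet3, both with a negative difference (4.59% of all probes).

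Tet2 and Tet3 encode methylcytosine dioxygenases. For Tet2, probe A_55_P2081303 had 11.40 to 11.80 (median 11.51) in CD F1 and 11.36 to 11.74 (median 11.56) in MD F1, which gave a log2 fold change of 0.00 (SE 0.0866, 95% interval -0.19 to 0.19). In F2 it had 9.88 to 10.33 (median 10.04) in CD F2 and 9.97 to 10.94 (median 10.23) in MD F2, which gave a log2 fold change of 0.21 (SE 0.151, FDR 0.922). The highest MD F2 value was that of replicate 6, and the groups overlapped in both generations. The other Tet2 probe, A_55_P2051405, had log2 fold changes of -0.12 (SE 0.128, FDR 0.671) in F1 and 0.15 (SE 0.134, FDR 0.936) in F2.

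The 3 Tet3 probes gave unequal results in F1. Probe A_51_P199339 had 6.08 to 6.90 (median 6.22) in CD F1 and 5.27 to 6.09 (median 5.82) in MD F1, with 5 of 6 MD F1 arrays below every CD F1 array. The log2 fold change was -0.56 (SE 0.176, 95% interval -0.95 to -0.18) with an FDR of 0.231 in limma (two-sided exact permutation test, p = 0.00649, before any adjustment). By slide it was -0.87, -0.14 and -0.68, so the size varied while the sign did not. Without MD F1 replicate 6, again the lowest array, it was -0.46 (FDR 0.24). It was -0.36 (FDR 0.55) with the sex measure as a term and -0.26 (FDR 0.262) with normexp background correction. Without scaling between arrays, where the median log2 fold change of all probes was -0.28, it was -0.95 and was called (FDR 0.0609). The other probes A_55_P2175260 and A_52_P491273 had log2 fold changes of -0.05 (SE 0.0813, FDR 0.804) and 0.13 (SE 0.104, FDR 0.565). A_55_P2175260 had 8.21 to 8.48 (median 8.29) in CD F1 and 7.99 to 8.47 (median 8.29) in MD F1, and thus gave no lower level in MD F1 beyond the spread between arrays. In F2 the log2 fold changes of the 3 probes were 0.09 to 0.12, with FDRs of 0.949 or more. For A_51_P199339 the values were 6.19 to 7.09 (median 6.75) in CD F2 and 6.35 to 7.07 (median 6.89) in MD F2, and the interaction was -0.68 (SE 0.248, FDR 0.474).

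**Figure D2:**
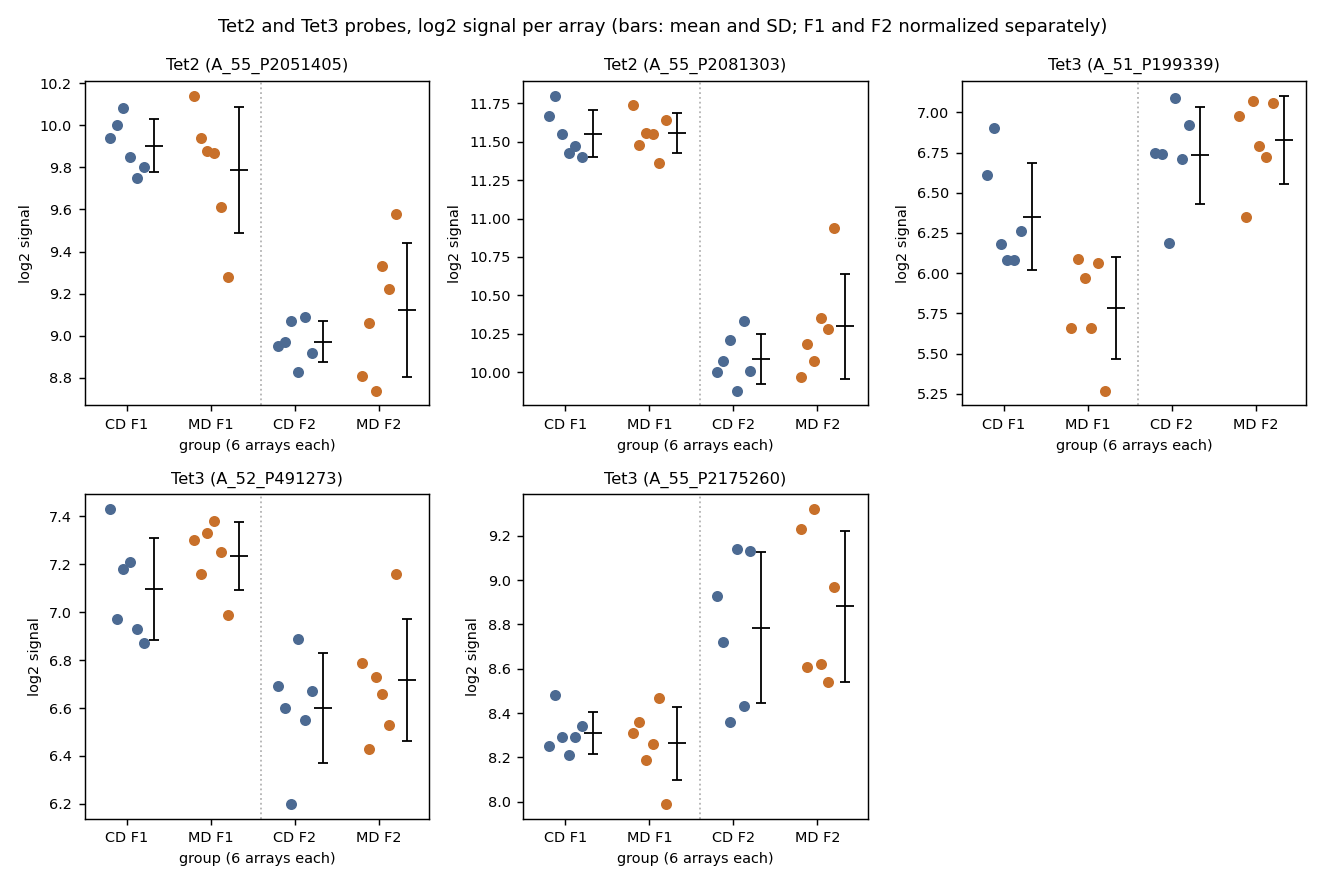
Log2 signal of the 2 Tet2 and 3 Tet3 probes on each array (points; 6 per group, blue for CD and orange for MD), with the group mean and SD as black bars and with F1 and F2 normalized separately. Tet3 probe A_51_P199339 is lower in MD F1 than in CD F1, and the groups of the other 4 probes overlap widely in each generation.

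Among the further enzymes of the excision step, no probe differed with diet beyond the spread between arrays. Mbd4, whose product removes thymine from mismatches at CpG sites, had 9.46 to 9.72 (median 9.59) in CD F1 and 7.27 to 9.78 (median 9.63) in MD F1. A single array, MD F1 replicate 6 with 7.27, set the low end, and the other 5 MD F1 arrays had 9.47 to 9.78. The log2 fold change was -0.33 (SE 0.368, FDR 0.684) with that array and 0.06 (FDR 0.715) without it. In F2, Mbd4 had 8.21 to 8.56 (median 8.43) in CD F2 and 8.42 to 8.93 (median 8.59) in MD F2, which gave a log2 fold change of 0.21 (SE 0.103, FDR 0.902) with all 6 MD F2 arrays above the CD F2 mean. Smug1, the gene of a uracil and 5-hydroxymethyluracil glycosylase, had 8.41 to 9.0 (median 8.82) in CD F1 and 8.66 to 9.29 (median 8.82) in MD F1. Its F2 values were 9.36 to 9.51 (median 9.40) in CD F2 and 9.31 to 9.61 (median 9.48) in MD F2. The log2 fold changes of Smug1 were 0.10 (SE 0.123, FDR 0.73) in F1 and 0.05 (SE 0.0659, FDR 0.96) in F2. Apex1, the gene of the main abasic-site endonuclease, had 11.58 to 11.96 (median 11.69) in CD F1 and 11.72 to 12.06 (median 11.84) in MD F1. In F2 it had 12.38 to 12.59 (median 12.54) in CD F2 and 12.41 to 12.94 (median 12.64) in MD F2. Its log2 fold changes were 0.11 (SE 0.087, FDR 0.571) and 0.13 (SE 0.0901, FDR 0.922), so that the 95% intervals of -0.08 to 0.30 and -0.07 to 0.32 limit any difference in Apex1 on these arrays.

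The Gadd45 probes had F1 differences of unlike sign, none of which passed the threshold over all probes. Gadd45b, the activity-induced member, had 11.01 to 11.43 (median 11.25) in CD F1 and 10.32 to 11.19 (median 11.01) in MD F1. All 6 MD F1 arrays lay below the CD F1 mean and 3 lay below every CD F1 array. The log2 fold change was -0.37 (SE 0.141, 95% interval -0.67 to -0.06), with an FDR of 0.294 in limma (two-sided exact permutation test, p = 0.0216, before any adjustment), and it was -0.25 (FDR 0.297) without MD F1 replicate 6, the lowest array. With the sex measure as a term it was -0.09 (FDR 0.736). Without scaling between arrays, where the median log2 fold change of all probes was -0.28, it was -0.63 and was called (FDR 0.0752). It was close to 0 on 1 slide (-0.05) and -0.65 and -0.40 on the other slides. Gadd45a, a gene that p53 induces after DNA damage, had 9.38 to 9.72 (median 9.54) in CD F1 and 9.63 to 10.17 (median 9.73) in MD F1. All 6 MD F1 arrays lay above the CD F1 mean. Without scaling between arrays the difference turned to -0.07, where the median log2 fold change of all probes was -0.28, and with the sex measure as a term it was 0.09 (FDR 0.774). The log2 fold change was 0.22 (SE 0.0981, 95% interval 0.01 to 0.44), with an FDR of 0.334 in limma (two-sided exact permutation test, p = 0.0216, before any adjustment), and it was 0.14 (FDR 0.366) without MD F1 replicate 6, the highest array. Gadd45g had 13.79 to 13.88 (median 13.84) in CD F1 and 13.63 to 13.98 (median 13.89) in MD F1, which gave a log2 fold change of 0.03 (SE 0.0631, FDR 0.844).

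In F2 none of the Gadd45 genes differed beyond the spread between arrays. Gadd45b had 9.91 to 10.40 (median 10.10) in CD F2 and 9.95 to 10.07 (median 10.02) in MD F2, which gave a log2 fold change of -0.09 (SE 0.0843, FDR 0.936). Gadd45a had 8.45 to 8.76 (median 8.55) in CD F2 and 8.29 to 9.66 (median 8.54) in MD F2. Its log2 fold change of 0.12 (SE 0.197, FDR 0.97) rested on MD F2 replicate 4, with 9.66, and without that array it was -0.07. Gadd45g had 12.82 to 13.64 (median 12.96) in CD F2 and 12.93 to 13.03 (median 13.00) in MD F2, which gave a log2 fold change of -0.08 (SE 0.131, FDR 0.97). The MD F2 arrays of Gadd45b and Gadd45g lay within the range of the CD F2 arrays.

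**Figure D3:**
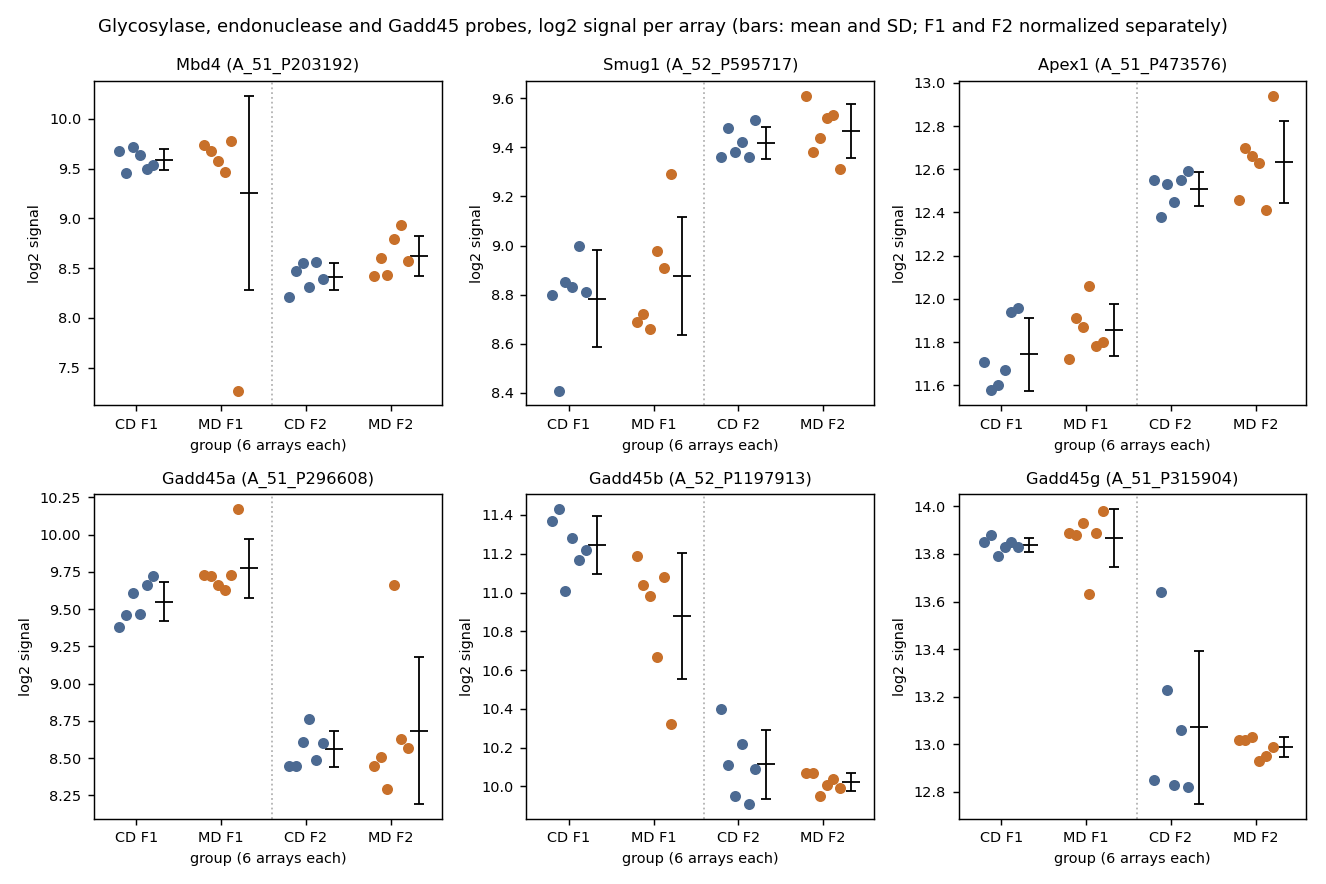
Log2 signal of the probes of Mbd4, Smug1, Apex1, Gadd45a, Gadd45b and Gadd45g on each array (points; 6 per group, blue for CD and orange for MD), with the group mean and SD as black bars and with F1 and F2 normalized separately. MD F1 replicate 6 (7.27) lies far below the other Mbd4 values and MD F2 replicate 4 (9.66) far above the other F2 values of Gadd45a.

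The generation contrast, CD F2 against CD F1 with all 24 arrays normalized together, was larger in size than both diet differences for each of the 14 probes. It called 13 of 14 probes at an FDR under 0.1 (limma), 5 with a higher and 8 with a lower signal in CD F2. Of all probes 60.2% were called, 28.6% higher and 31.6% lower, so a call in this contrast is common. Apex1 (1.21, SE 0.0866), Smug1 (0.93, SE 0.101) and Tet3 probe A_55_P2175260 (0.78, SE 0.146) had higher log2 signals in CD F2. Tet2 probe A_55_P2081303 (-1.13, SE 0.126), Mbd4 (-0.88, SE 0.284), Gadd45b (-0.81, SE 0.115) and Gadd45a (-0.70, SE 0.158) had lower ones. Gadd45g, with -0.21 (FDR 0.0951), was not called without the 3 arrays that stood apart (-0.16, FDR 0.221) or with the sex measure as a term (-0.20, FDR 0.153). Its difference was larger with 75th percentile scaling (-0.43, FDR 0.00107), in the authors' processed table (-0.63, FDR 9.91e-06) and without scaling (-0.87, FDR 0.00025), and ranged from -0.33 to -0.16 when each array was left out. The Tdg probes did not share a direction here either: A_55_P2044091 and A_55_P2121364 were lower in CD F2 (-0.81 and -0.52), whereas A_66_P116265 was higher (0.67). Likewise 2 of the 3 Tet3 probes were higher and A_52_P491273, at -0.17 (FDR 0.264), was not called, except without scaling (-0.62, FDR 0.00275) and in the authors' processed table (-0.37, FDR 0.012).

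On this common scale both groups of one generation stood above both of the other for 13 of 14 probes. The exception, Tdg probe A_55_P2044091, was highest in CD F1 (8.80), followed by MD F2 (8.33), MD F1 (8.28) and CD F2 (8.0). On this scale MD F1 replicate 6 had 7.80 and the other MD F1 arrays 8.26 to 8.51. The place of MD F1 below MD F2 therefore rests on that array. MD F2 and MD F1 did not differ beyond their spread (FDR 0.711, limma), while CD F1 lay above MD F2 (FDR 0.0014) and MD F1 above CD F2 (FDR 0.0446). For Apex1 the order was MD F2 (12.89), CD F2 (12.76), MD F1 (11.65) and CD F1 (11.55). Only its step between the generations passed the threshold (FDR 3.37e-10), and the steps within a generation had FDRs of 0.728 and 0.76. Gadd45b stood at 11.07 in CD F1, 10.72 in MD F1, 10.26 in CD F2 and 10.17 in MD F2, and again only the step between MD F1 and CD F2 passed (FDR 0.00165). Mbd4 levels ran from 9.44 in CD F1 over 9.11 in MD F1 and 8.77 in MD F2 to 8.57 in CD F2, and none of its neighbours in this order differed (FDRs of 0.331 to 0.908). This too rests on MD F1 replicate 6, which had 7.11. The other MD F1 arrays had 9.33 to 9.63, all above the MD F2 arrays (8.57 to 9.07). The neighbours were not tested without that array.

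**Figure D4:**
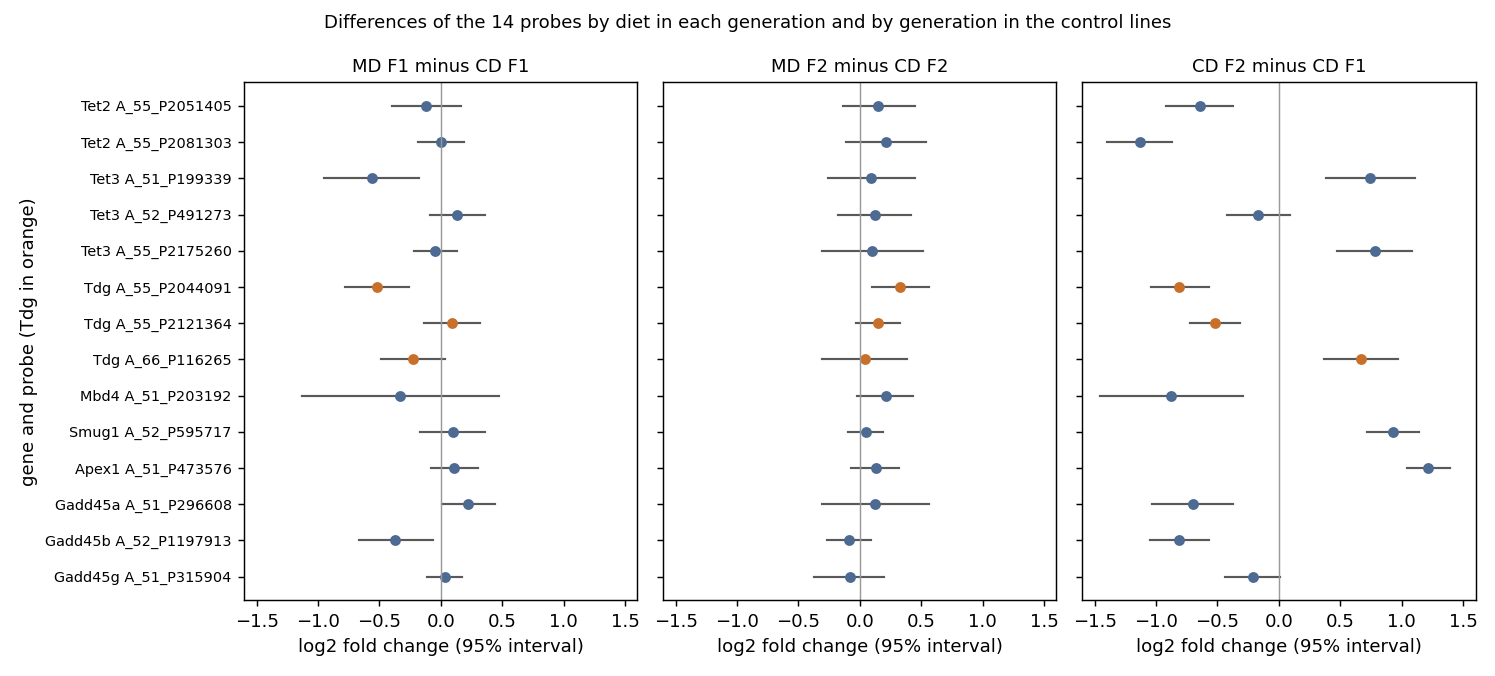
Log2 fold change (points) and 95% interval (lines) of each of the 14 probes for MD F1 minus CD F1, MD F2 minus CD F2, and CD F2 minus CD F1, from limma, with Tdg in orange. The diet differences lie between -0.56 and 0.33, and the generation differences between -1.13 and 1.21.

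Probes were assigned to a gene by identifier, and whether they report the same locus was not checked by sequence. To compare probes, the departures of the arrays from their group means were correlated. These 24 values per probe share arrays, slides and labelling, and the coefficients are a description. The Tet2 probes had a Pearson r of 0.68 and the Tet3 probes of 0.50 to 0.68. The Tdg probes had -0.40, 0.16 and -0.20, and without the 3 arrays that stood apart -0.13, 0.00 and -0.16. Across 3487 genes with at least 2 bright probes the median r was 0.34, with quartiles of 0.01 and 0.64, and 24% were below 0. Tdg probe A_55_P2044091 was more like probes of other genes of the list, with r of 0.57 with Tet3 probe A_51_P199339 and 0.58 with Mbd4. Without the 3 arrays these values fell to 0.46 and 0.26. Gadd45b and Smug1 departed in opposite directions (r of -0.64, and -0.45 without the 3 arrays). The files give 1 accession for the 3 Tdg probes, and RefSeq lists 2 further genes named as Tdg pseudogenes. Which transcript or copy each probe reports is not stated, and the probes of Tdg and Tet3 that disagree are given as uncertain.

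**Figure D5:**
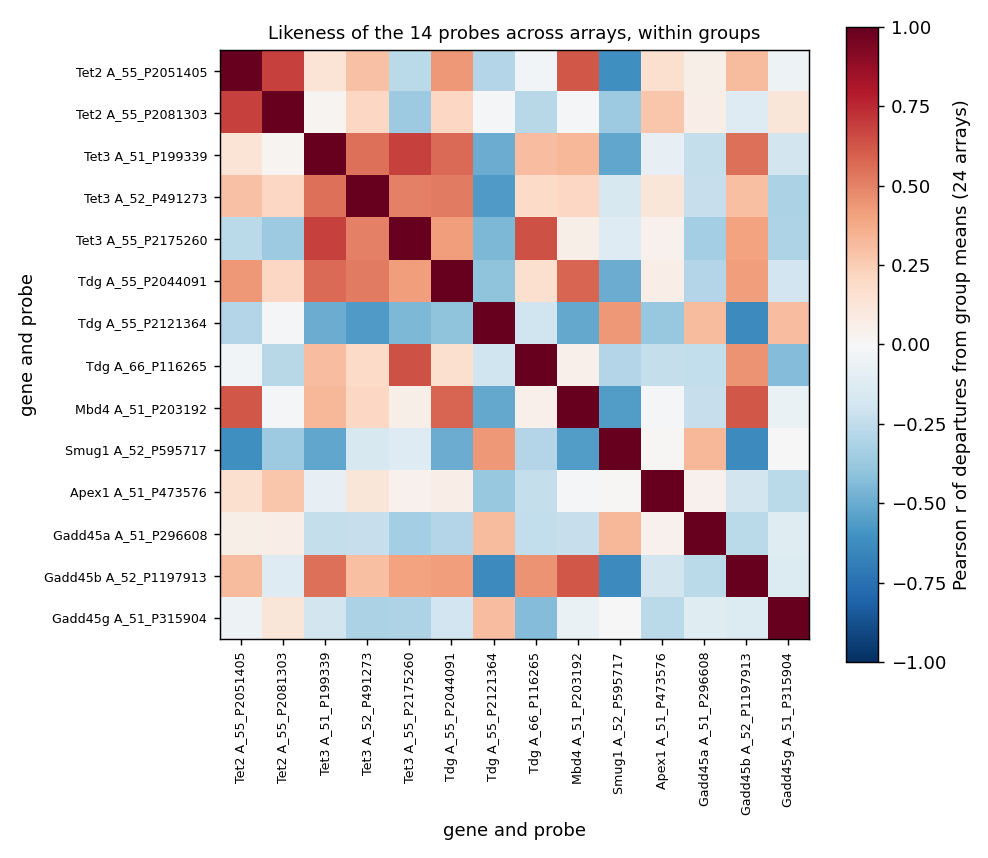
Pearson correlation of the departures of the 24 arrays from their group means for each pair of the 14 probes (colour scale from -1 to 1). The 2 Tet2 probes and the 3 Tet3 probes form blocks of positive values, whereas the 3 Tdg probes do not (-0.40, 0.16 and -0.20).

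The probes of other genes most like these members were sought by the same measure among 17951 to 17953 probes of other genes. For Tdg probe A_55_P2044091 they were Nalcn and Ywhaz (r of 0.83 each) and Mtmr3 (0.82), and without the 3 arrays the values were 0.75, 0.79 and 0.71. For Gadd45a they were Rffl (0.86), Pram1 (0.84) and Chac1 (0.82). Gadd45b was most like Pnmal2 (0.85), Coro2a (0.84) and Sh3rf1 (0.82). Without the 3 arrays the values were 0.93, 0.87 and 0.82 for Gadd45a and 0.77, 0.72 and 0.74 for Gadd45b. For Tet3 probe A_55_P2175260 the most alike were Brd2 (0.98), Polr2i (0.95) and Vmn1r70 (0.95), and for Tet2 probe A_55_P2081303 Luc7l2 (0.84), Nsun7 (0.81) and Amy1 (0.81). These are the highest values out of a large number, and they carry no test.

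Other genes of the pathway were described from 5 lists, each gene by its brightest probe. None of their genes passed an FDR under 0.1 in F1 or F2. In base excision repair beyond the members, 3 of 24 genes had a higher signal in MD F1 at an unadjusted p under 0.05, against 6.96% of all probes, and 0 a lower one, against 7.48%. They were the glycosylase genes Nthl1 (log2 fold change 0.23, FDR 0.219), Neil3 (0.35, FDR 0.303) and Mutyh (0.16, FDR 0.316). Of the 24, 20 had a positive log2 fold change in F1, with a median of 0.11 beside 0.01 over all probes. In F2 there was 1 of 24 with a lower signal (2.38% of all probes), Parp1, the gene of a strand-break sensor, with -0.22 (FDR 0.89), and it was no longer among them without the arrays that stood apart (0 lower and 1 higher). In the interaction 3 of the 24 were higher (3.7% of all probes), with Nthl1 at 0.32 (FDR 0.398).

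Of 16 genes of TET regulation and 2-oxoglutarate or 2-hydroxyglutarate metabolism, 0 passed the unadjusted threshold in F1 (14.4% of all probes did) and 1 had a lower signal in F2 (2.38% of all probes), Idh3b, a subunit of the mitochondrial isocitrate dehydrogenase (-0.22, FDR 0.89). Without the arrays that stood apart, these counts were 2 lower in F1 and 0 in F2. Of 11 GADD45 partners and nucleotide excision repair genes, 0 passed in F1, with 10 of 11 positive and a median of 0.08, and 1 had a lower signal in F2, Ing1 (-0.14, FDR 0.892), against the same shares of all probes. Without the arrays that stood apart this count was 0 in F2, with an unadjusted limma p of 0.0858 for Ing1. Of 5 AID and APOBEC deaminase genes, 0 passed in either generation, where 14.4% of all probes passed in F1 and 5.6% in F2, and for Apobec2 and Apobec4 no array gave a signal well above background.

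Activity-induced genes, the class to which Gadd45b belongs, had 15 of 18 negative log2 fold changes in both generations. The medians were -0.10 in F1 and -0.15 in F2, beside 0.01 over all probes in each. In F1, 0 of 18 passed the unadjusted threshold, which 14.4% of all probes passed. In F2, 5 of 18 had a lower signal in MD F2, where 2.38% of all probes did, and 4 without the arrays that stood apart. The 5 were the transcription factor genes Fos (-0.72), Egr2 (-0.65), Fosb (-0.40), Egr1 (-0.33) and Egr4 (-0.29), each with an FDR of 0.89 in limma. Fosb was not among the 4 without those arrays (unadjusted limma p of 0.136). Gadd45b itself had -0.37 in F1 and -0.09 in F2, and the test of the difference between the generations gave -0.26 (SE 0.163, FDR 0.705).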

How the data were processed

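The authors' files hold Agilent Feature Extraction output for each array (version 10.7.3.1 per the file headers, while the methods state another). The deposited intensities used here are processed signals, linear, background-subtracted and not scaled between arrays. The authors' own processed value table, also intensities, was an alternative. Spots marked non-uniform or as population outliers (1939 in F1, 2097 in F2) were left out. Log2 values were quantile-normalized within a generation, or over all 24 arrays for the interaction, generation contrast and group order, and spots of a probe were averaged. The linear model was limma (3.58.1, R 4.3.3) with a mean per group and Benjamini-Hochberg adjustment over all probes and calls at an FDR under 0.1. Exact permutation tests ran over all 924 divisions of 12 arrays, whose smallest p is 0.00216. The fits were tested on simulated data.

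The members and gene lists were chosen with earlier results of these data known. Per-array values are given for the brightest probe of a gene, each Tdg probe and probes with an unadjusted p under 0.05, of each list up to 5 genes with the largest change at that p, and the 3 most similar probes for 5 members. The labels do not say whether pools shared mice or litters, so p-values measure the spread between arrays. The number of arrays limits the precision. Alternatives were other scalings and background corrections, a filter on dim probes, further model terms, and leaving arrays out.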

Additional observations from a re-analysis of the deposited data

Results flagged for a closer look

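In 8 of 56 sets of 6 arrays (14 probes in 4 groups), 1 array lay far from the other 5. The cutoff used is passed by about 1 in 20 sets of independent, normally distributed values. These sets share the same arrays, and the share over all probes is not given here, so the count has no background beside it. The 8 distant values came from 5 arrays, and 4 of the 8 from MD F1 replicate 6. That array had 7.95 for Tdg probe A_55_P2044091 (others 8.42 to 8.67), 9.01 for Tdg probe A_55_P2121364 (8.41 to 8.61), 7.27 for Mbd4 (9.47 to 9.78) and 10.17 for Gadd45a (9.63 to 9.73). The same array was therefore the lowest for one Tdg probe and the highest for another. MD F1 replicate 4 had 13.63 for Gadd45g (13.88 to 13.98), and CD F1 replicate 2 had 8.41 for Smug1 (8.80 to 9.0). In F2, MD F2 replicate 6 had 7.62 for Tdg probe A_55_P2121364 (7.82 to 7.91), and MD F2 replicate 4 had 9.66 for Gadd45a (8.29 to 8.63).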

How the results depend on the processing

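Directions were unchanged in all settings tried for the generation contrast, and most diet effects near 0 were the ones that turned. Counts of the 14 probes that moved are as follows. In F1, 4 were called without scaling between arrays, when 7952 of all probes were called in place of 13, and 1 in a fit of all 24 arrays (73 of all probes). With the sex measure as a term, 1 had an unadjusted p under 0.05 in F1 and 2 in F2, and without scaling 0 had in F2. For counts at this p with the sex term, no scaling or normexp, the numbers over all probes are not given here. Such counts therefore have no share beside them. For the interaction, 1 was called (Tdg A_55_P2044091) with normexp on the median signal (-0.63, FDR 0.0869), with dim probes left out, with the sex term and without the 3 arrays that stand apart, and normexp left 1 with an unadjusted p under 0.05. Leaving out each array in turn gave 0 to 0 called and 2 to 4 at an unadjusted p under 0.05 in F1, 0 to 0 and 1 to 2 in F2, 0 to 1 and 2 to 3 for the interaction, and 12 to 13 and 12 to 13 for the generations. Of all probes, 4375 to 6288 reached this p in F1 and 1612 to 2678 in F2. For the interaction 2743 to 3740 reached it, and for the generations 22161 to 23280. Tdg A_55_P2044091 kept a negative F1 difference, from -0.58 to -0.42 (FDR 0.111 to 0.368), and a positive F2 difference, from 0.27 to 0.38, when each array was left out, and its interaction was called (FDR 0.0565 to 0.0853) without CD F1 replicate 5, MD F1 replicate 1, CD F2 replicate 4, CD F2 replicate 6 or MD F2 replicate 2.

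Turned signs in F1 without scaling, where the median log2 fold change of all probes was -0.28, were Tet2 A_55_P2081303 -0.23, Tet3 A_52_P491273 -0.22, Tdg A_55_P2121364 -0.22, Smug1 -0.21, Apex1 -0.13, Gadd45a -0.07 and Gadd45g -0.18. With the sex term they were Tet2 A_55_P2051405 0.06, Tet2 A_55_P2081303 -0.01, Tet3 A_55_P2175260 0.05, Tdg A_55_P2121364 -0.04, Mbd4 0.37 and Smug1 -0.08. In F2, Tdg A_66_P116265 turned with 75th percentile scaling (-0.03), the sex term (-0.02) and no scaling (-0.07), which also turned Tet3 A_51_P199339 (-0.03), Tet3 A_52_P491273 (0.00) and Smug1 (-0.03). Normexp put Tet3 A_51_P199339 at 0.00 in F2. In the interaction, Tet3 A_52_P491273 turned with 75th percentile scaling (-0.01), normexp (-0.04) and no scaling (-0.22), which also gave Smug1 -0.19, Gadd45a -0.11 and Gadd45g -0.10. Without the 3 arrays Smug1 had -0.06 and Gadd45a -0.07. With each array left out, signs turned in F1 for Tet2 A_55_P2081303 (-0.03 to 0.05), Tet3 A_55_P2175260 (-0.09 to 0.01) and Mbd4 (-0.44 to 0.06). They turned in F2 for Tet3 A_51_P199339 (-0.02 to 0.19), Tdg A_66_P116265 (-0.04 to 0.11), Gadd45a (-0.07 to 0.20) and Gadd45g (-0.13 to 0.03), and in the interaction for Tet3 A_52_P491273 (-0.04 to 0.11), Smug1 (-0.04 to 0.09) and Apex1 (-0.07 to 0.04). In the generation contrast, Tet3 A_51_P199339 (0.26, FDR 0.267) and Tdg A_66_P116265 (0.21, FDR 0.393) lost the call without scaling, and Tet3 A_52_P491273 gained it without scaling (-0.62, FDR 0.00275) and in the authors' table (-0.37, FDR 0.012). The cause was not tested.

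Deviations of same-numbered arrays correlated weakly (r from -0.05 to 0.21 in F1 and -0.17 to 0.19 in F2). Such correlations cannot show whether the numbers pair the samples, which the labels do not say. With the replicate block, 0 of the 14 were called in F1, F2 and the interaction, 0 of all probes were called in F1 and 27 in place of 5 in the interaction, and Tdg A_55_P2044091 had -0.52 (FDR 0.279) in F1 and an interaction of -0.86 (FDR 0.172). Of 24 arrays, 2 of 12 in F1 and 4 of 12 in F2 correlated best with their own number. Over all probes, calls in F1 numbered 4 with 75th percentile scaling, 5 with normexp, 6 with dim probes left out, 0 with the sex term or slide block, and 0 to 152 with each array left out. In the interaction they numbered 22 without the 3 arrays, 12 with the sex term, 11 with dim probes left out, 9 with normexp, 0 without scaling and 3 to 41 with each array left out. Normexp on the mean signal was not run because the files used here hold no such column. The median signal took its place, and this choice and that of leaving out 3 arrays for the gene lists were made after seeing the data.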
